A study of Mus musculus with 22 samples.

Results

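Ribosomes are built in the nucleolus. RNA polymerase I transcribes the long precursor of the ribosomal RNAs, small nucleolar ribonucleoproteins (snoRNPs) modify it and guide its cleavage, and a succession of assembly factors turns it into the small and the large subunit. The 44 genes described here encode proteins of these steps and were taken from a list of names, out of 24421 genes in the count files. They were grouped by role into 4 proteins of the box C/D snoRNPs, 4 of the box H/ACA snoRNPs, 8 of RNA polymerase I transcription, 3 abundant nucleolar proteins, 10 of the small subunit processome, 11 of large subunit assembly and 4 of late small subunit maturation. All 44 passed the filter on low counts and were tested. Averaged over the libraries, every one of them also reached the 50 normalized counts that a call required.

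The cells were sorted from the colons of untreated wild-type C57BL/6N male mice, 5 to 7 weeks old, and were positive for the epithelial surface protein Epcam. The 6 cell types were stem cells (3 libraries), absorptive progenitors (AbsPro, 3), a secretory gate of progenitors, deep crypt secretory and goblet cells (SecPDG, 4), tuft cells (5), enterocytes (5) and enteroendocrine cells (EEC, 2). Enterocytes, tuft cells and EECs are mature cells, and stem cells give rise to all of them through progenitors. Per the study's methods, replicates came from independent mice and sorts, and whether cell types shared mice is not stated for these libraries. Those of stem cells and AbsPro came from single mice and those of the other types from pools, which were larger in tuft cells and enterocytes than in some SecPDG libraries and largest in EECs, so the effects of pooling and of cell type cannot be told apart.

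The libraries did not have the same quality. Counts on genes ranged from 4122122 to 22462518 per library. Reads that aligned outside genes made up 40.9% to 49.4% of aligned reads in the stem cell, AbsPro and SecPDG libraries and 43.4% to 89.7% in those of tuft cells, enterocytes and EECs, with Tuft 5 lowest and EEC 1 highest. Marker genes of each cell type except AbsPro were summed to check its label, so the AbsPro label was not checked in this way. The mean sums were highest in the labelled cell type, except for the enterocyte markers. Their mean was higher in EECs (17471 and 51997 normalized counts) than in enterocytes (18995 to 21507), which rests on 1 EEC library. The summed SecPDG markers (Atoh1, Spdef, Muc2 and Reg4) were about as abundant in tuft cells (479013 to 1016810) as in SecPDG (499649 to 1390630). Endothelial markers summed to 9.60 to 18.9 in stem cells, 826 to 1340 in EECs, 334 to 783 in enterocytes and 170 to 586 in tuft cells. Stromal markers, in the same order, summed to 23.6 to 157, 280 to 1452, 302 to 843 and 79.5 to 440. Immune markers had the highest mean in tuft cells (1470 to 3328), beside 942 to 1799 in stem cells, 472 to 1667 in EECs and 489 to 921 in enterocytes. The part of these differences in the results below was not tested.

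The summed level of the 44 genes was highest in stem cells. Normalized counts, which are counts scaled to the mean effective library size, summed to 95656, 110442 and 123650 in the stem cell libraries, 80959.9, 66377 and 74538 in AbsPro and 62565, 73980.0, 73339 and 79721 in SecPDG. The sums were 44291, 43516, 42491, 42349.9 and 70689 in tuft cells, 21209, 25429.6, 24982, 48425 and 51807 in enterocytes and 23798 and 29544 in EECs. Every stem cell library lay above every library of the other 5 types. Within enterocytes, replicates 1 to 3 had 81.0% to 83.1% of reads outside genes and lower sums than replicates 4 and 5, which had 66.8% and 68.8%. Among tuft cells, replicate 5 had 43.4% outside genes and the highest sum. EEC 2, with 64.5% outside genes, had a sum below those of Enterocyte 4 and 5. In these bulk samples, less RNA per cell of these genes and fewer cells that express them cannot be told apart. By gene, the mean was highest in stem cells for 37 of the 44 and lowest in EECs for 28, in enterocytes for 13 and in tuft cells for 3. This order was not counted over all genes. Their median log2 fold change against stem cells was itself -0.30 in enterocytes and -0.30 in EECs.

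**Figure D1:**
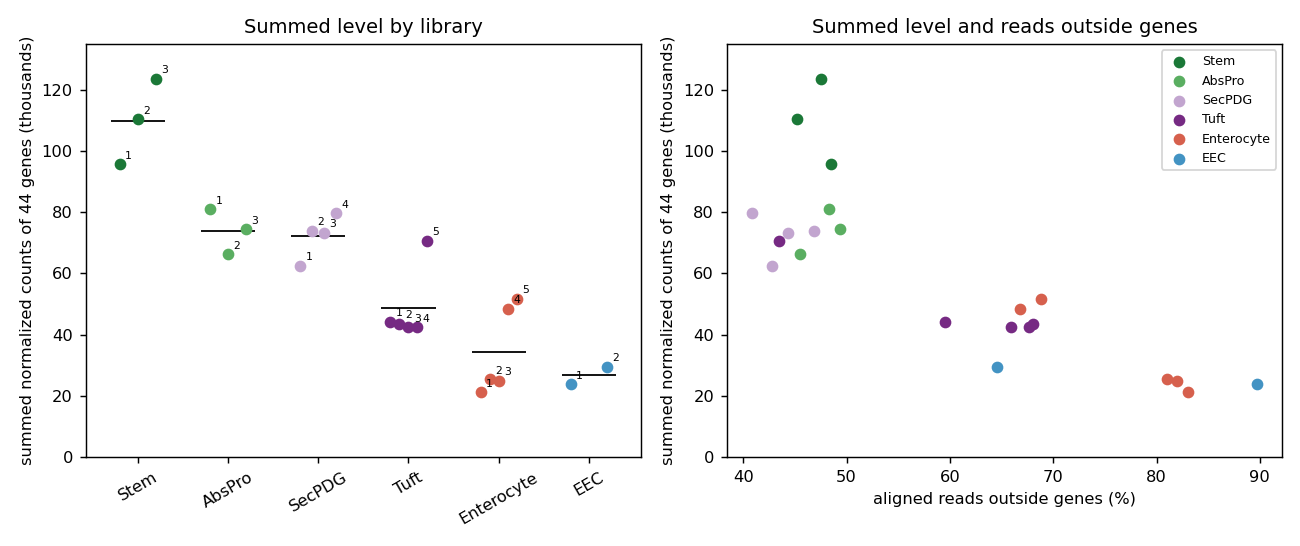
Summed normalized counts of the 44 genes. On the left, points are libraries, numbered by replicate, and lines are means of each cell type; the 3 stem cell libraries lie highest. On the right, the same sums are plotted against the percentage of aligned reads outside genes, and Enterocyte 1 to 3 lie at 81.0% to 83.1% with lower sums than Enterocyte 4 and 5.

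The first question was which of these genes change as stem cells become progenitors. Genes were called with edgeR's quasi-likelihood test at a Benjamini-Hochberg adjusted p under 0.01. No member was called lower or higher in AbsPro than in stem cells, where 0.159% of 13188 genes were called lower and 0.857% higher. The median log2 fold change of the 44 was -0.40, beside 0.04 over all genes. At an unadjusted p under 0.05, 12 members were lower and 0 higher, beside 708 and 1016 of the 13188 genes. DESeq2 called 4 members lower (Gar1, Nolc1, Mybbp1a and Aatf) and 0 higher, beside 0.746% of all genes called lower.

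In SecPDG, Fbl, Rrp9 and Gar1 fell, beside 2.76% of all genes called lower and 5.84% called higher. Fbl encodes fibrillarin, the methyltransferase of box C/D snoRNPs (log2 fold change -1.38, SE 0.35, adjusted p = 0.0054), Rrp9 a box C/D protein that binds U3 RNA (log2 fold change -1.49, SE 0.35, adjusted p = 0.0021) and Gar1 a core protein of box H/ACA snoRNPs (log2 fold change -1.39, SE 0.32, adjusted p = 0.002). The median over members was -0.56, against -0.06 over all genes. These 3 calls were not firm. They numbered 0 to 2 when 1 library was left out, with 0 without SecPDG 2, and 0 in an older form of the same test. No member was called between SecPDG and AbsPro by edgeR, while 2.98% of all genes were called lower and 3.45% higher. DESeq2 called 1 member lower (Utp20), beside 4.18% of all genes. With an unadjusted p under 0.05 in edgeR, 2 members were lower and 1 higher, beside 1512 and 1385 of the 13188 genes.

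The mature cells differed from stem cells in most members. In tuft cells 24 of 44 fell, beside 7.31% of all genes called lower and 13.5% higher. In enterocytes 40 fell, beside 19.8% lower and 18.5% higher, and in EECs 32 fell, beside 15.8% lower and 18.6% higher. No member rose in any of the 3, at an unadjusted p under 0.05 or by DESeq2. Of the 13188 genes, 3064, 3087 and 3236 were higher at that unadjusted p in tuft cells, enterocytes and EECs. The median log2 fold change of the members was -1.04 among tuft cells, -1.57 in enterocytes and -1.79 in EECs, where that of all genes was -0.09, -0.30 and -0.30. Without Enterocyte 1 to 3 and EEC 1, the libraries with the most reads outside genes, the calls in enterocytes dropped from 40 to 22. The share of all genes called lower in that run is not given here. That run left 1 EEC library, so no count is given for EECs. The 2 EEC libraries were less alike (Spearman correlation 0.573) than replicates of any other type (0.866 or more). A fit of EECs and stem cells alone called 17 members lower, beside 3.47% of all genes. In tuft cells the calls were 15 without replicate 2 and 15 in the older form of the test, against 30 without replicate 5.

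The size of these changes depended on the scaling. With DESeq2's size factors the median of all genes moved from -0.30 to 0.35 in enterocytes and from -0.30 to 0.48 in EECs, and the members' medians to -1.05 and -1.11. Relative to all genes the members' median was then -1.40 in enterocytes and -1.59 in EECs, beside -1.27 and -1.48 with TMM. The members called lower numbered 34 in enterocytes and 24 in EECs with these factors, beside 10.2% and 8.88% of all genes.

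**Figure D2:**
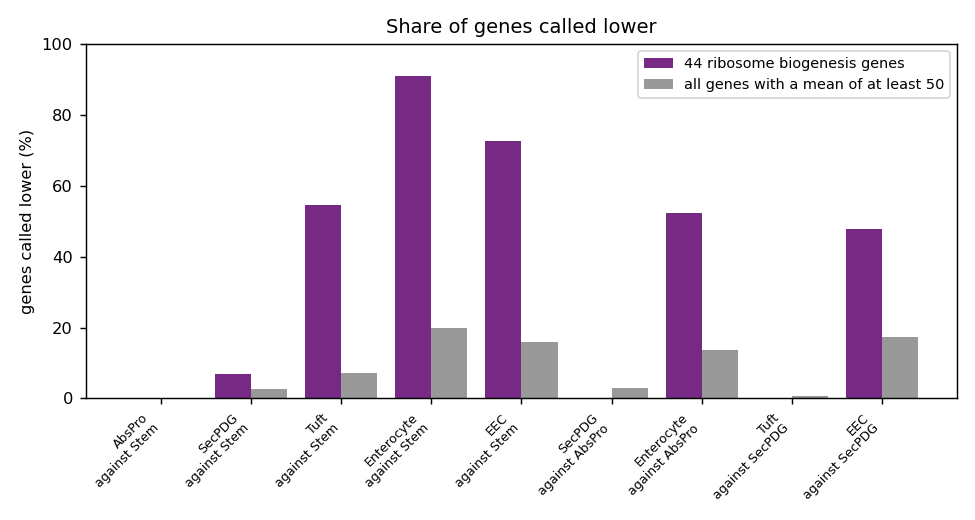
Percentage of genes called lower (edgeR, adjusted p under 0.01) in each of 9 comparisons. Purple bars are the 44 ribosome biogenesis genes and grey bars the 13188 genes with a mean of at least 50 normalized counts. No member was called lower in AbsPro against stem cells, SecPDG against AbsPro or tuft cells against SecPDG.

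Each mature cell type was also compared with the progenitor of its lineage. From AbsPro to enterocytes 23 members fell, beside 13.8% of all genes called lower and 14.2% higher. With DESeq2's size factors 11 fell, beside 4.9% of all genes called lower. Without Enterocyte 1 to 3 and EEC 1, 4 fell, and the share of all genes in that run is not given here. From SecPDG to EECs 21 fell, beside 17.4% lower and 19.3% higher. None was called between SecPDG and tuft cells, where 0.599% of all genes were called lower and 5.2% higher. There 15 members were lower and 0 higher at an unadjusted p under 0.05, beside 1246 and 2342 of the 13188 genes. DESeq2 called 3 members lower (Nolc1, Tcof1 and Mybbp1a), beside 1.15% of all genes. Comparisons that share a cell type share its libraries and are not independent. The step from SecPDG to tuft cells was set against that from AbsPro to enterocytes in 1 contrast. No member differed between the lineages by edgeR or DESeq2, and the smallest adjusted p was 0.204 for Nhp2. At an unadjusted p under 0.05, 10 members were positive and 0 negative, beside 1346 and 475 of the 13188 genes. Of all genes, 0.235% and 0.394% were called in this contrast, in the negative and the positive direction.

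**Figure D3:**
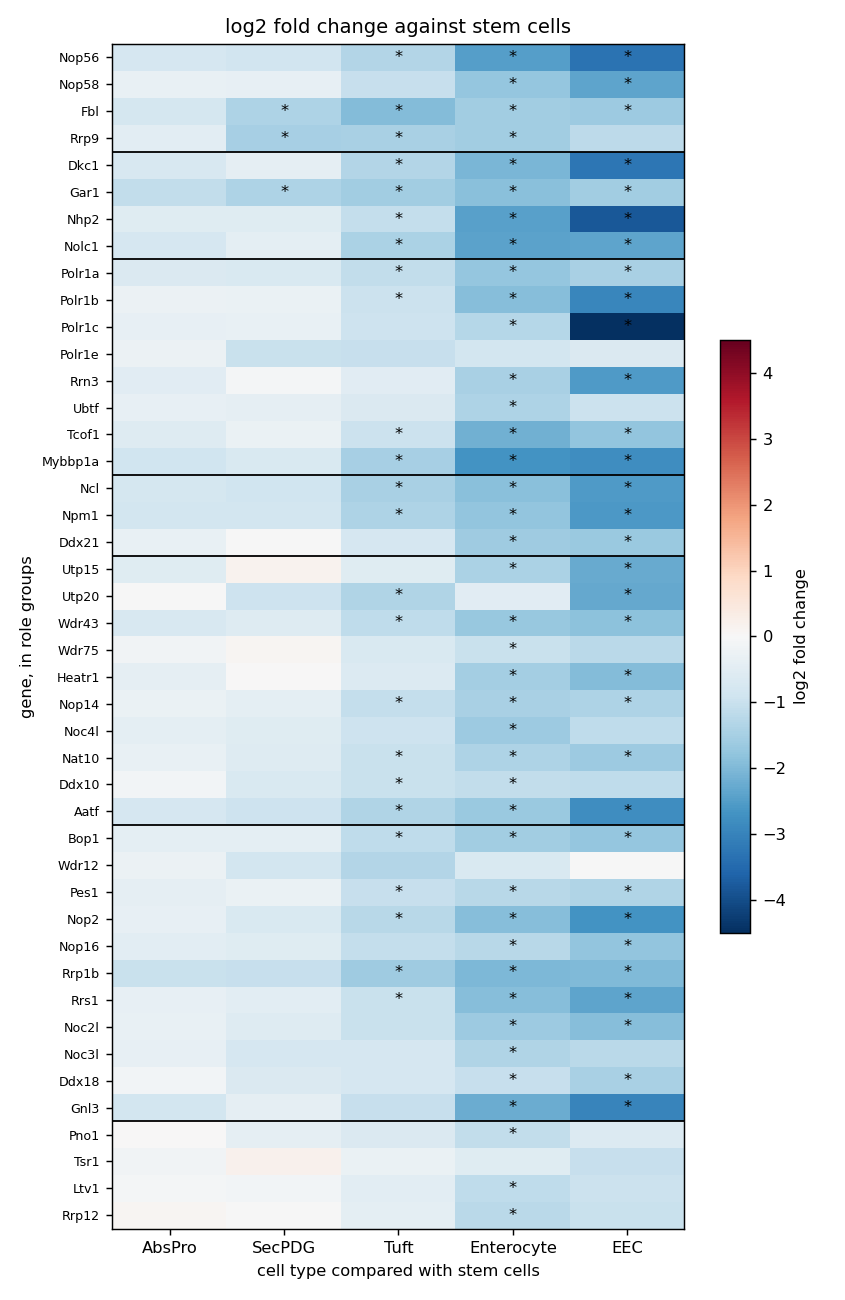
Log2 fold change of each of the 44 genes (lines, in role groups parted by black lines) in 5 cell types (columns) against stem cells. Blue is lower than in stem cells, and stars mark genes called at an adjusted p under 0.01. AbsPro has no star, SecPDG 3, tuft cells 24, EECs 32 and enterocytes 40.

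Among the box C/D proteins, which carry out the 2′-O-methylation of ribosomal RNA, 3 of 4 fell among tuft cells, 4 in enterocytes and 3 in EECs. Nop56 (chr2:130274430-130279313, mm10) encodes a core protein of these particles. Its normalized counts were 1626, 2146 and 2145 in stem cells, 1286, 1012 and 1198 in AbsPro and 620.2, 1182, 1100.1 and 1427 in SecPDG. They were 581, 814, 466, 760.2 and 1295 in tuft cells, 240.0, 304, 236, 557 and 429 in enterocytes and 74.1 and 292 in EECs. No library of another cell type reached the lowest stem cell library, and Tuft 5 lay among the progenitors. Nop56 fell in enterocytes (log2 fold change -2.48, SE 0.32, adjusted p = 3.15e-08) and in EECs (log2 fold change -3.32, SE 0.50, adjusted p = 4.75e-07). Fbl (chr7:28169710-28179269) had 423, 499.9 and 561 normalized counts in stem cells, 344, 239 and 268 in AbsPro and 169, 160.4, 214 and 211 in SecPDG. Tuft cells held 30.5, 162, 126, 114 and 187, enterocytes 111, 108, 128, 165 and 327 and EECs 154 and 166. Fbl was thus already low in SecPDG, and its lowest mean was in tuft cells (log2 fold change -1.96, SE 0.35, adjusted p = 2.98e-05). Nop58, the partner of Nop56, fell in enterocytes and EECs, with log2 fold changes of -1.74 and -2.37. By the reads on silent genes, an estimated 27.6% of its EEC level could be background.

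The box H/ACA proteins, which form pseudouridine in ribosomal RNA, all fell in the 3 mature cell types (4 of 4 in each). Dkc1 (chrX:75095854-75109777) encodes dyskerin, the pseudouridine synthase. Stem cells had 858, 1170.2 and 1514 normalized counts of it, AbsPro 744, 633 and 758 and SecPDG 1213, 711, 754 and 859. Tuft cells had 133, 509.8, 516, 462 and 697, enterocytes 152, 197, 176, 459.6 and 424 and EECs 163 and 93.4. SecPDG overlapped stem cells, whereas the mature cells did not. The difference of Dkc1 from stem cells in EECs was among the larger ones (log2 fold change -3.26, SE 0.55, adjusted p = 4.24e-06). An estimated 29.3% of its EEC level could be background. Nhp2 (chr11:51619735-51623714), a core protein of the same particle, had 1087, 1129 and 1183 normalized counts in stem cells, 901, 834 and 569 in AbsPro and 688, 614, 736 and 1038 in SecPDG. It had 366, 505, 419.6, 436 and 898 in tuft cells, 119, 151, 136, 352 and 284 in enterocytes and 136 and 41.3 in EECs. All other libraries lay below the stem cell libraries, and Tuft 5 lay among the progenitors. Nhp2 fell in enterocytes (log2 fold change -2.43, SE 0.33, adjusted p = 7.83e-08) and EECs (log2 fold change -3.81, SE 0.57, adjusted p = 3.18e-07). Background could make up an estimated 15.8% of its EEC level. Gar1 and Nolc1, a chaperone of snoRNPs, changed by -1.86 and -2.42 in enterocytes on the log2 scale.

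Of the 8 genes of RNA polymerase I transcription, 4 fell among tuft cells, 7 in enterocytes and 6 in EECs. Mybbp1a (chr11:72441355-72451768) encodes a nucleolar protein that binds Myb and acts on ribosomal RNA synthesis, and the study names it among genes enriched in stem cells. Its normalized counts were 6373, 5942 and 5645 in stem cells, 3195, 3504 and 2854 in AbsPro and 3345, 4199.9, 3676 and 3668 in SecPDG. In tuft cells they were 2312, 1884, 1833, 1583 and 2859, in enterocytes 670.3, 707, 599.6, 1373 and 1248 and in EECs 804 and 906. Every stem cell library lay above all others, and enterocytes and EECs lay below all tuft cell libraries. Mybbp1a fell in tuft cells (log2 fold change -1.51, SE 0.29, adjusted p = 9.52e-05), enterocytes (log2 fold change -2.70, SE 0.30, adjusted p = 6.44e-10) and EECs (log2 fold change -2.80, SE 0.44, adjusted p = 8.49e-07), and these calls held under every alternative run. In AbsPro its log2 fold change of -0.91 had an adjusted p of 0.23 in edgeR, while DESeq2, the test that the study used, called it lower.

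Polr1c (chr17:46243920-46248054), a subunit shared by RNA polymerases I and III, had 817, 673 and 688 normalized counts in stem cells, 532, 568 and 591 in AbsPro and 539.8, 589, 539 and 629.7 in SecPDG. Tuft cells had 328, 358, 289, 355 and 552, enterocytes 155, 317, 165, 528 and 310.2 and EECs 3.62 and 52.2. EECs stood far below all other libraries, with 2 and 43 counts before scaling. An estimated 63.0% of their mean level could be background. That estimate was 22.5 normalized counts per kilobase of exon in EEC 1 and 4.22 in EEC 2. Over the 1314 bases of exon of Polr1c it exceeded the observed level in EEC 1, so it was too high there. The fitted difference of EECs from stem cells was the most negative of all members (log2 fold change -4.48, SE 0.66, adjusted p = 2.34e-07). With so few counts its size varied between -7.60 and -3.74 over the alternatives. Polr1e (chr4:45018583-45036565), a subunit of RNA polymerase I, varied least of all members over the cell types. Its normalized counts were 259, 443 and 366 in stem cells, 359.6, 264 and 256 in AbsPro and 79.4, 237, 149.9 and 259.5 in SecPDG. They were 105, 187, 179, 205 and 189.9 in tuft cells, 341, 179, 166, 169 and 166 in enterocytes and 298 and 169.9 in EECs. Apart from tuft cells, every cell type overlapped stem cells, and no comparison with stem cells passed the test. Tcof1, a cofactor of ribosomal DNA transcription, fell by 2.17 on the log2 scale in enterocytes, and Ubtf, the factor that binds ribosomal DNA, fell there by 1.41.

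The abundant nucleolar proteins all fell in enterocytes and EECs (3 of 3 in each) and 2 of them in tuft cells. Ncl (chr1:86344719-86359400), which encodes nucleolin, had 4200.1 normalized counts per kilobase of exon in stem cells, the highest level per length of the 44, and Npm1 (chr11:33152287-33163206), which encodes nucleophosmin, 3284. Ncl had 28608, 33009 and 41729 normalized counts in stem cells, 23208, 15165 and 21506 in AbsPro and 15085, 17272, 20376 and 21850.5 in SecPDG. It had 10360.1, 10873, 10382, 10449.7 and 20203 in tuft cells, 3798, 5561, 7397, 13282 and 17213 in enterocytes and 4984 and 6866 in EECs. Tuft 5 and Enterocyte 5 lay among the progenitors, and no library overlapped stem cells. Ncl fell in tuft cells (log2 fold change -1.47, SE 0.42, adjusted p = 0.0076), enterocytes (log2 fold change -1.87, SE 0.43, adjusted p = 0.00035) and EECs (log2 fold change -2.54, SE 0.60, adjusted p = 0.00057). Npm1 had 5213, 5892 and 7880.1 normalized counts in stem cells, 3885, 2630.1 and 4102 in AbsPro and 3719, 2939, 3671 and 4113 in SecPDG. Its counts were 1903, 2003, 2213, 1944 and 4013 in tuft cells, 694, 1129, 1592, 2591 and 3272 in enterocytes and 1258 and 870.0 in EECs. Tuft 5 and Enterocyte 5 lay among the progenitors. Npm1 fell in enterocytes (log2 fold change -1.77, SE 0.34, adjusted p = 3.56e-05) and EECs (log2 fold change -2.59, SE 0.49, adjusted p = 2.85e-05). Npm1 has processed pseudogenes that can take part of its reads, so its level is uncertain. Ddx21, a nucleolar helicase, fell in enterocytes and EECs, by 1.58 and 1.66 on the log2 scale.

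**Figure D4:**
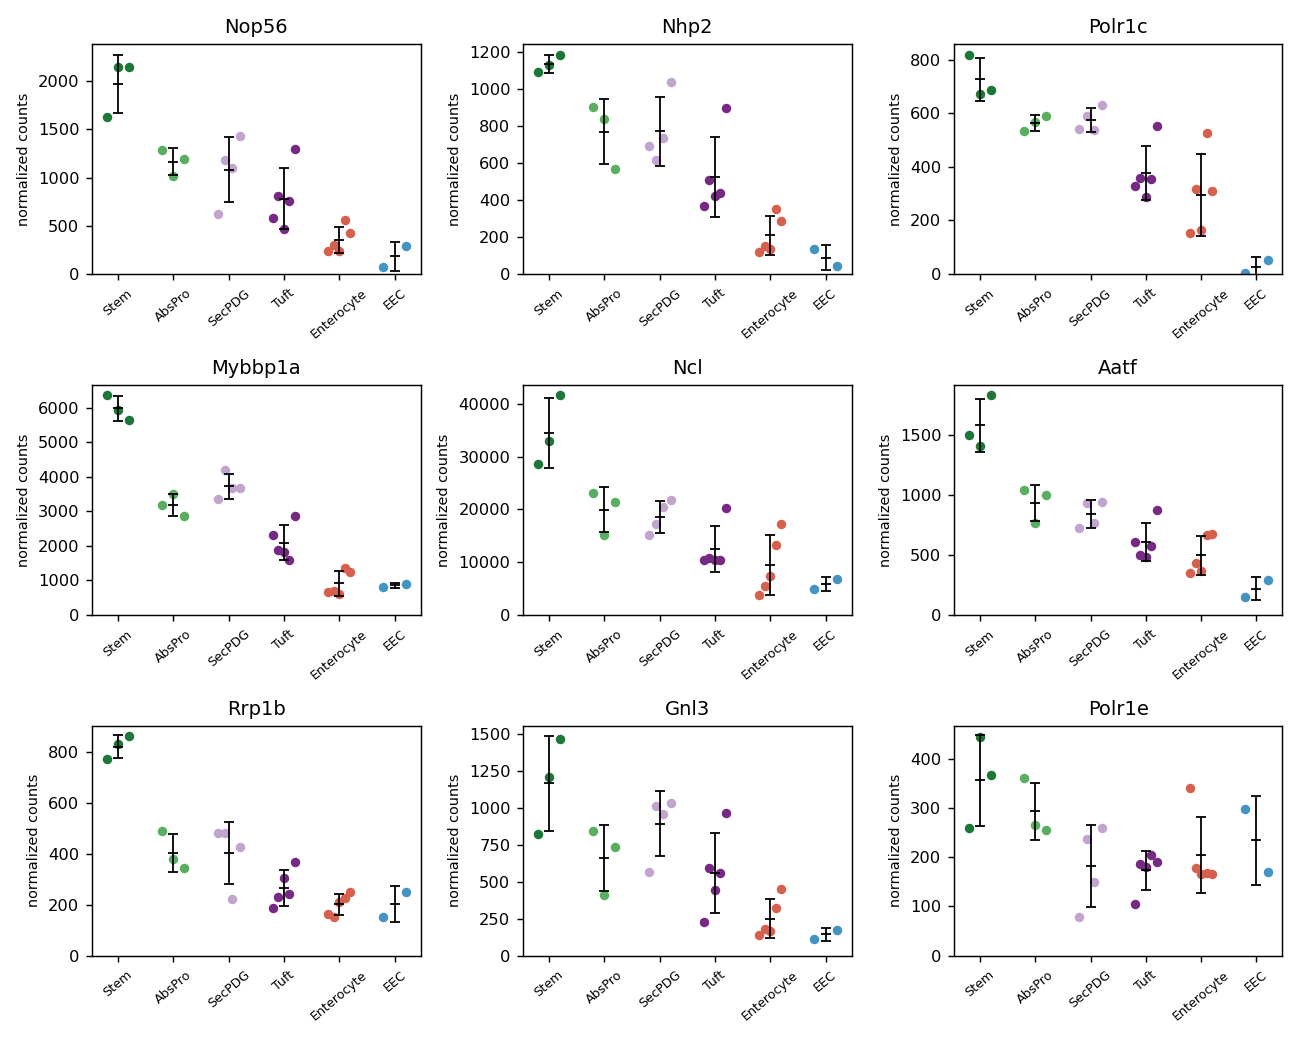
Normalized counts of 9 of the genes in each library. Points are libraries by cell type, and bars are the mean and SD. The stem cell mean is the highest in all 9 panels, and Polr1e varies least.

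In the small subunit processome, the complex that folds and cuts the precursor of the small subunit, 6 of 10 genes fell among tuft cells, 9 in enterocytes and 7 in EECs. Aatf (chr11:84422855-84513522), a nucleolar protein of that complex that the study also names as enriched in stem cells, had 1497, 1406 and 1829 normalized counts in stem cells, 1037, 763 and 1002 in AbsPro and 722, 932, 761 and 941 in SecPDG. It had 609, 495, 480.3, 570.4 and 871 in tuft cells, 351, 429, 365, 667 and 674 in enterocytes and 150.0 and 289 in EECs. Stem cells lay above all others, and EECs below all others. Aatf fell in tuft cells (log2 fold change -1.37, SE 0.28, adjusted p = 0.00021), enterocytes (log2 fold change -1.66, SE 0.29, adjusted p = 6.56e-06) and EECs (log2 fold change -2.79, SE 0.44, adjusted p = 1.23e-06), in every alternative run. Wdr43 (chr17:71615895-71659031), another processome protein, had 2694, 3086 and 3373 normalized counts in stem cells, 1998, 1574 and 1981 in AbsPro and 1948, 2242, 1881 and 2111 in SecPDG. Tuft cells had 1163, 1314, 1139, 1139 and 2106, enterocytes 429, 622, 765, 1228 and 1613 and EECs 869.6 and 821. Enterocyte 1 to 3 were lowest, and Enterocyte 5 and Tuft 5 reached the progenitors. Wdr43 fell in enterocytes (log2 fold change -1.71, SE 0.30, adjusted p = 1.17e-05) and EECs (log2 fold change -1.85, SE 0.42, adjusted p = 0.00036). Utp20 was the processome gene not called in enterocytes, at a log2 fold change of -0.52, yet it fell in tuft cells by 1.37 and in EECs by 2.30 on the log2 scale.

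Of the 11 genes of large subunit assembly, 5 fell among tuft cells, 10 in enterocytes and 9 in EECs. Rrp1b (chr17:32036100-32062865), a nucleolar assembly factor, had 769.5, 829 and 859.8 normalized counts in stem cells, 487, 378 and 345 in AbsPro and 481, 482, 224 and 425 in SecPDG. Tuft cells had 188, 229.7, 303, 242 and 367, enterocytes 165, 153, 210.3, 228 and 251 and EECs 152 and 251. Every stem cell library exceeded every other library. Rrp1b fell in tuft cells (log2 fold change -1.60, SE 0.30, adjusted p = 4.53e-05) and enterocytes (log2 fold change -2.03, SE 0.31, adjusted p = 8.93e-07), and an estimated 25.7% of its enterocyte level and 32.3% of its EEC level could be background, by the reads on silent genes. Gnl3 (chr14:31012433-31019152) encodes nucleostemin, a nucleolar GTPase. It had 827, 1211 and 1465 normalized counts in stem cells, 843, 413 and 735 in AbsPro and 568, 1013, 959 and 1035 in SecPDG. It had 232, 597, 449, 561 and 969.5 in tuft cells, 138, 182, 166, 320.5 and 451 in enterocytes and 114 and 176 in EECs. AbsPro, SecPDG and tuft cells overlapped stem cells, and enterocytes and EECs did not. Gnl3 fell in enterocytes (log2 fold change -2.22, SE 0.35, adjusted p = 1.37e-06) and EECs (log2 fold change -2.97, SE 0.54, adjusted p = 1.38e-05). Wdr12, a partner of Pes1 and Bop1, was the member of this group not called in enterocytes, at -0.70, and in EECs its log2 fold change was -0.04. The EEC mean lay above that of stem cells, which rests on 1 library, with 736 normalized counts in EEC 1 and 141 in EEC 2, against 387 to 439 in stem cells. An estimated 43.0% of its enterocyte level and 32.4% of its EEC level could be background. Pes1 and Bop1 fell in enterocytes by 1.25 and 1.57 on the log2 scale.

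The 4 genes of late small subunit maturation differed least from stem cells. None was called in tuft cells or EECs, where log2 fold changes ran from -0.66 to -0.31 and from -1.03 to -0.61, and Pno1, Ltv1 and Rrp12 fell in enterocytes. In EECs 3 of the 4 were lower at an unadjusted p under 0.05, beside 3882 of the 13188 genes. The difference between this group and the others was not tested. Ltv1 (chr10:13178140-13193168), needed for the last steps of the small subunit, had 1021, 894 and 1111 normalized counts in stem cells, 999.6, 737 and 1082 in AbsPro and 764, 847, 1018 and 1064 in SecPDG. It had 605, 639.8, 622, 567 and 1113 in tuft cells, 274, 287, 320.0, 683 and 713 in enterocytes and 56.0 and 895 in EECs. EEC 1 was the lowest of all libraries, while EEC 2 lay within the range of stem cells. Pno1 (chr11:17203198-17211568), an RNA-binding assembly factor, had 402, 627 and 868 normalized counts in stem cells, 689, 526 and 687 in AbsPro and 147, 512, 598 and 674 in SecPDG. Its counts were 195, 414, 407, 327 and 631 in tuft cells, 218, 221, 180.2, 437 and 428 in enterocytes and 212 and 585 in EECs. All cell types overlapped stem cells. Pno1 and Ltv1 were called in enterocytes (log2 fold change -1.10, SE 0.36, adjusted p = 0.0092, and log2 fold change -1.15, SE 0.35, adjusted p = 0.0051), and these calls were lost under 13 and 11 of the 23 alternatives. Tsr1 was not called in any comparison with stem cells, and its log2 fold changes were -0.16 in AbsPro, 0.19 in SecPDG and -0.31 in tuft cells.

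Over the 5 comparisons with stem cells, 3 members were called in none (Polr1e, Wdr12 and Tsr1), 7 in 1, 12 in 2, 20 in 3 and 2 in 4 (Fbl and Gar1). A list of 93 other ribosome biogenesis genes was counted beside the members. Of these, enterocytes were lower than stem cells in 63, EECs in 45 and tuft cells in 18, at medians of -1.16, -1.41 and -0.80 on the log2 scale, and none was called higher. In SecPDG 3 fell, namely Rcl1, Taf1d and Nob1, and in AbsPro none. With an unadjusted p under 0.05, 5 were lower in AbsPro and 0 higher, beside 708 and 1016 of the 13188 genes. Of 76 tested genes for cytosolic ribosomal proteins, 56 fell in EECs, 47 in enterocytes and 26 in tuft cells, with a median of -2.35 in EECs. Ribosomal protein genes have many processed pseudogenes, so their counts are uncertain. Of 12 proliferation genes, 9 fell in tuft cells and all 12 in enterocytes and in EECs, at medians of -1.33, -3.06 and -3.76; the part of cell division in the members' values was not tested.

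Because the members moved together, their promoters were searched for CACGTG, the canonical E-box that Myc and related factors bind, which reads the same on both strands. RefSeq windows of GRCm38.p6 were at hand for 38 of the 44 genes, and the 250 bases before the start held the motif in 3 of them (7.89%), beside 6.86% of all 27025 genes. This share was close to that of all genes. The matches are printed with 10 bases on either side and the motif in capitals, in Rrn3 (215 and 48 bases before the start), Aatf (204) and Nop2 (60).
Rrn3 at chr16:13780474-13780499, + strand: gcgccaaggtCACGTGcacacgcctc
Rrn3 at chr16:13780641-13780666, + strand: acgctctgctCACGTGggccgcgtcc
Aatf at chr11:84513690-84513715, - strand: tccaagcggtCACGTGctccggcgcg
Nop2 at chr6:125131813-125131838, + strand: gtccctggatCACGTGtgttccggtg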

How the data were processed

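Bulk RNA was sequenced from 22 libraries of sorted mouse colon crypt cells. Per the labels, reads were aligned by the authors to mm10 with STAR 2.5.2a and counted per gene with HTSeq 0.6.1p1; the deposited counts are whole numbers without normalization. HTSeq's 5 summary entries (reads outside genes and the like) stayed out of library sizes and tests. The deposited splicing and polyadenylation tables were not used.

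The test was that of edgeR 4.0.16, run in R 4.3.3 (filterByExpr, TMM factors, quasi-likelihood F test, 1 fit of 22 libraries, cell type as the only term). Of 22781 genes tested, 13188 reached a mean of 50 normalized counts, and a call needed this mean and a Benjamini-Hochberg adjusted p under 0.01. SEs are the log2 fold change over the root of F. The members and lists were chosen with earlier results of these data known. The older form of the quasi-likelihood test was run first and made fewer calls, and the current form was then taken because an earlier treatment of these data used it; both are reported.

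On counts simulated for enterocytes against stem cells (22781 genes, dispersions of the real libraries), the median recovered log2 change was 1.01 for genes changed 2-fold and 2.04 for genes changed 4-fold. Of 100 genes each, 0 and 54 were called, with 2 false calls. No other gene was changed, whereas 2614 of 13188 genes were called lower and 2446 higher in the data. With fewer changed genes the adjusted p is stricter, so these shares called do not carry over to the data. Unchanged genes had p under 0.05 in 7.33% of cases, and in 4.81% with the older form, so p-values of the current form are somewhat too small. A first version of this test, at an assumed dispersion, had failed the minimum of calls set for it; it was rebuilt with limits on bias and false calls.

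Values in every library are given for the 2 members of each role group with the largest mean change over the 5 comparisons with stem cells, for Mybbp1a and Aatf, and for the member that varied least. Background was estimated per kilobase of exon from olfactory, vomeronasal and trace amine receptor and hair keratin-associated genes, and exon lengths and positions come from GENCODE M21. The estimate is printed for some members only, and it was also large in others, such as 46.9% of the EEC level of Utp15. The labels do not tie libraries to mice, and the study's methods describe the replicates as independent mice or pools of mice. The fit shared 1 estimate of the spread per gene over the 22 libraries. Its p-values thus measure a spread over single mice and pools together, also where only single mice were compared. DESeq2 1.42.0, other scalings and filters, thinned counts, a replicate block and libraries left out in turn were alternatives.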

Additional observations from a re-analysis of the deposited data

Results flagged for a closer look

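In cell types of 4 or 5 libraries, 1 library stood apart from the others by Dixon's test in 13 sets, out of 44 genes and their sum in each of 3 cell types, where chance gives about 1 in 20; the sets are not independent. Most were high values in Tuft 5, whose share of reads outside genes was 43.4%, against 59.5% to 68.0% in Tuft 1 to 4. There the summed level of the 44 genes was 70689 normalized counts, against 42349.9 to 44291. Nhp2 stood at 898 there, against 366 to 505 in the other tuft cell libraries. For Nolc1 the value in Tuft 5 was 2447, and the others held 1011 to 1358. Polr1c stood at 552 there, against 289 to 358 in the other tuft cell libraries. For Ncl the value in Tuft 5 was 20203, and the others held 10360.1 to 10873. Npm1 stood at 4013 there, against 1903 to 2213 in the other tuft cell libraries. For Wdr43 the value in Tuft 5 was 2106, and the others held 1139 to 1314. Bop1 stood at 704 there, against 408 to 452 in the other tuft cell libraries. For Ltv1 the value in Tuft 5 was 1113, and the others held 567 to 639.8. Gnl3 had 568 normalized counts in SecPDG 1, against 959 to 1035 in the other libraries of that cell type. Polr1e had 105 normalized counts in Tuft 1, against 179 to 205 in the other libraries of that cell type. Fbl had 327 normalized counts in Enterocyte 5, against 108 to 165 in the other libraries of that cell type. Polr1e had 341 normalized counts in Enterocyte 1, against 166 to 179 in the other libraries of that cell type. Whether reads outside genes take part in these values was not tested.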

How the results depend on the processing

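All 143 calls of single members kept their direction under every alternative run for them, and 68 also kept their call under all of these. Some of these runs held 1 EEC library, and there the spread came from the other cell types. Counts of members called lower that moved by more than 1.5 times are given by comparison, and the cause was not tested. For SecPDG against stem cells (3), DESeq2's test gave 8, its size factors 7, library totals 13, upper quartile factors 7, a fit of these cell types alone 13, an adjusted p under 0.05 5 and the older quasi-likelihood form 0. All genes called lower made up 3.59% (upper quartile factors) to 7.27% (library totals) there, the older form left out. For AbsPro against stem cells (0), DESeq2 gave 4, the cell types alone 7, and DESeq2's size factors, library totals and upper quartile factors 1 each. Of all genes, DESeq2 called 0.746% lower, the cell types alone 1.29% and the scalings 0.31% to 0.36%. For SecPDG against AbsPro (0), those 5 alternatives gave 1 each, beside 3.72% to 5.98% of all genes called lower. For tuft cells against SecPDG (0), DESeq2 gave 3, the cell types alone 4, an adjusted p under 0.05 3, and DESeq2's size factors, upper quartile factors, no filter and thinned counts 1 each. Of all genes, DESeq2 called 1.15% lower, the cell types alone 4.01%, the adjusted p under 0.05 2.24% and the others 0.496% to 1.19%. For enterocytes against AbsPro (23), DESeq2 gave 13, its size factors 11, library totals 12, upper quartile factors 11, an adjusted p under 0.05 37 and the older form 14. Of all genes, 4.86% to 5.6% were called lower by DESeq2 and these scalings, and 27.1% at an adjusted p under 0.05. For EECs, the fit of the compared types alone gave 17 against stem cells (32) and 13 against SecPDG (21). All genes called lower made up 3.47% and 6.87% there. Tuft cells against stem cells (24) had 15 in the older form. In EECs against SecPDG, DESeq2 called 1 member higher, Wdr12.

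A further 4 alternatives were not planned. The older form had been run first and became an alternative once values were known, when the current form was taken; the others were added after the values were seen. TMM factors from abundant genes gave 1 lower in AbsPro and 7 in SecPDG against stem cells, 15 in enterocytes and 1 in SecPDG against AbsPro, and 2 in tuft cells against SecPDG. Taking off estimated background gave 5 in SecPDG against stem cells, 1 in SecPDG against AbsPro and 1 in tuft cells against SecPDG. Without Enterocyte 1 to 3 and EEC 1, enterocytes had 22 against stem cells and 4 against AbsPro. The shares of all genes called lower are not given for these 4 alternatives.

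With 1 library left out in turn, the calls against stem cells numbered 36 to 41 for enterocytes, 15 to 30 for tuft cells and 0 to 2 for SecPDG. For EECs they numbered 30 to 34 with a stem cell library left out. Calls ranged from 13 (without AbsPro 2) to 35 (without Enterocyte 1) in enterocytes against AbsPro and from 0 to 1 in tuft cells against SecPDG. In EECs against SecPDG they numbered 18 without SecPDG 3. Runs without 1 of the 2 EEC libraries left a single library of that type, so their counts of calls are not given.

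Same-numbered libraries did not deviate together throughout, with correlations of deviations from -0.32 to 0.44. Each deviation was taken from the mean of few libraries, so these correlations cannot tell whether same-numbered libraries shared mice or sorts. With the replicate block, calls rose from 23 to 38 in enterocytes against AbsPro and from 0 to 5 in tuft cells against SecPDG. All genes called lower also rose there, from 13.8% to 25.4% and from 0.599% to 2.36%. Against stem cells the calls were 33 in EECs, 40 in enterocytes and 34 in tuft cells. Beside them, 17.8%, 27.4% and 14.1% of all genes were called lower. Low depth and many reads outside genes limit what can be seen in EEC 1 and Enterocyte 1 to 3.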
